A study of Mus musculus with 80 samples.

Results

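The metallothioneins of the mouse brain transcriptome, Mt1, Mt2 and Mt3, were followed through every preparation of the study. They were chosen as the rows of the deposited tables that carry these 3 symbols, out of 16385 genes listed in at least 1 of the 2 tables, and all 3 had more than 5 counts in every library of at least 1 group and entered every fit. The study asked how microglial RNA changes with the way microglia are isolated from the brain. A sort comparison of 48 libraries and a cell preparation comparison of 32 libraries were sequenced from brains of Cx3cr1-NuTRAP mice. All mice had the genotype Cx3cr1(Jung)-cre/Ert2+;NuTRAP+, in which tamoxifen induces Cre under the Cx3cr1 promoter and so tags ribosomes with eGFP in microglia and in other Cx3cr1-expressing myeloid cells. All received 100 mg/kg tamoxifen on 5 days at 3 months of age and were sampled at 5 to 8 months, so every group compared here carries the transgenes and the tamoxifen.

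Each preparation gave 2 fractions. Input was the lysate kept before the pull-down and holds the RNA of all cells in the preparation, and TRAP (translating ribosome affinity purification) was the RNA pulled down with the eGFP-tagged ribosomes. In the sort comparison, Tissue was a brain hemisphere homogenized directly in lysis buffer, Cell was an unsorted suspension made from brain with enzymes and mechanical force for 30 min at 37 °C, and 4 sorts were made from such suspensions. These were autoMACS (CD11b magnetic beads), Tyto (cartridge-based sorting on CD11b, CD45 and eGFP), FACSAria (cytometer-based sorting on the same marks), and autoMACS to Tyto (beads first, cartridge sorter second). Each fraction had 4 mice in Tissue, Cell, autoMACS and FACSAria, 5 in Tyto and 3 in autoMACS to Tyto. In the cell preparation comparison, each fraction had 4 mice of Tissue2 (a further set of samples under the mouse numbers of Tissue), of suspensions made at 37 °C without inhibitors (Cell_noInhib), of the same suspensions made with 5 µg/ml actinomycin D, 10 µM triptolide and 10 µg/ml anisomycin (Cell_Inhib), which block transcription and translation, and of suspensions made at 4 °C without enzymes (Dounce). The labels do not say whether the Tissue2 libraries were newly made or sequenced again.

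Metallothioneins are small cysteine-rich proteins that bind zinc and copper and buffer them in the cytosol. Mt1 and Mt2 are made in most tissues, and in brain mainly in astrocytes, and their transcription is raised by zinc through the factor Mtf1, by glucocorticoids and by inflammatory signals. Mt3 is largely a brain metallothionein, made in astrocytes and neurons, was first described as a growth inhibitory factor, and responds little to metals.

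All 3 genes lie on the plus strand of chromosome 8 in mm10 and have 3 exons. Mt3 (Entrez 17751, ENSMUSG00000031760) spans 94152607 to 94154148, Mt2 (17750, ENSMUSG00000031762) spans 94172618 to 94173567, and Mt1 (17748, ENSMUSG00000031765) spans 94179089 to 94180327. The coding sequences, read 5′ to 3′ from the GENCODE vM21 annotation of GRCm38, the assembly that mm10 names, are shown because reads of close relatives can be hard to assign and because the members behaved unlike one another in the libraries. Capitals mark, for Mt1, the bases that differ from Mt2, for Mt2, those that differ from Mt1, and for Mt3, those that differ from Mt1 or are inserted against it.
Mt1: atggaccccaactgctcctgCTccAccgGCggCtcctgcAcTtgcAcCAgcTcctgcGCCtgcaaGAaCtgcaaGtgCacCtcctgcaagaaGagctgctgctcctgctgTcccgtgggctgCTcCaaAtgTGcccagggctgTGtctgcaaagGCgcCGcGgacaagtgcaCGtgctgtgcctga
Mt2: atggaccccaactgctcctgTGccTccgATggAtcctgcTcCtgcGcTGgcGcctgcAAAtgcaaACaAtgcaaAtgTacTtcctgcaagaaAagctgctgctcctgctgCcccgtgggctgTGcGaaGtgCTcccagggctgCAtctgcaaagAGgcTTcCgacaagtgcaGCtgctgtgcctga
Mt3: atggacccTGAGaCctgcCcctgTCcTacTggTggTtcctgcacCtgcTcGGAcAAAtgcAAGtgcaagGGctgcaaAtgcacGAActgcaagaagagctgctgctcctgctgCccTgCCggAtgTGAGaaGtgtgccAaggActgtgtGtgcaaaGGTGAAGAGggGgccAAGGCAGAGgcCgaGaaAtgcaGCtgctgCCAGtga

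Mt1 and Mt2 each encode 186 coding bases and were 79.6% identical, with 38 bases that differ and a longest shared run of 20 bases. Mt3 has 207 coding bases and was 66.2% identical to Mt1 and 67.6% identical to Mt2, with longest shared runs of 27 and 20 bases. No window of 50 bases of the 549-base Mt1, 511-base Mt2 or 536-base Mt3 transcript occurred in the transcript of another gene, so a read of that length without errors fits 1 of the members only. By the paper's methods, part of the sequencing was at 50 bases and both read ends were trimmed. Such reads were shorter than this window, and the alignment also allowed mismatches. Shorter windows were not tested.

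The libraries of the sort comparison held 7129464 to 20168116 expected counts over the listed genes, with a median of 15211942, and those of the cell preparation comparison 2471448 to 14650287, with a median of 10179908. The shallowest group was Dounce-TRAP, with a median of 3403594. The preparations were checked with summed levels of cell type markers, in CPM, the counts of a gene relative to the size of its library. The sum of 12 microglial markers was 292 to 448 CPM in Tissue-Input, 5039 to 6572 in Cell-Input and 27365 to 47548 in the sorted Input libraries. The sum of 16 astrocyte markers was 4966 to 5253 CPM in Tissue-Input, 10436 to 14234 in Cell-Input and 184 to 615 in the sorted Input libraries, of which up to 3 markers were at 0 in a library. A pair of sorted Input libraries stood apart. In FACSAria-Input of mouse 991, the summed ependymal and choroid plexus markers reached 659 CPM against 12.4 to 37 in the other 3 mice, and astrocyte markers 357 CPM against 207 to 243. In autoMACS-Input of mouse 72, the shallowest library of the sort comparison, microglial markers were at 27365 CPM against 41133 to 43858 in the other 3.

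Levels below are CPM after TMM normalization of Input and TRAP libraries together, within each comparison. Fold changes are log2 values with their standard error (SE) from edgeR's quasi-likelihood test, and FDR is its Benjamini-Hochberg adjusted p over all genes tested. A gene was called when the FDR was under 0.1 and the fold change above 2 in either direction. In bulk RNA of this kind, fewer cells that carry a transcript and less of it per cell cannot be told apart. Mice are the replicates, but the sorts share some of their mice and were treated as independent. In each fraction, autoMACS shares 3 mice with autoMACS to Tyto, and Tyto shares 3 with FACSAria. Tissue and Cell came from the same mice, and no sorted library came from these. In contrasts of the sorts with Cell or Tissue, sorting and mice therefore cannot be told apart. Likewise, autoMACS and autoMACS to Tyto had no mouse in common with Tyto and FACSAria.

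In the unsorted suspension, Mt1 and Mt2 stood at close to a fold change of 2 over tissue in Input, and Mt3 was not called in either direction. Mt1 was at 148, 157, 167 and 174 CPM in Tissue-Input and at 246, 276, 307 and 334 CPM in Cell-Input. Mt2 was at 100.3, 106, 116 and 128 CPM in Tissue-Input and at 179, 210.4, 227 and 264 CPM in Cell-Input. Every Cell-Input library was above every Tissue-Input library for both genes. The log2 fold change was 0.95 ± 0.13 (SE, FDR = 9.49e-07) for Mt1, which is 1.93-fold and so was not called, and 1.07 ± 0.29 (FDR = 0.00229) for Mt2, which is 2.10-fold and was called. With the mouse as a block, Mt2 came to 0.93 and was not called, so it sits at the edge of the fold threshold. Mt3, at 272, 288, 309.7 and 319.8 CPM in Tissue-Input and 261, 269.7, 289 and 340.2 CPM in Cell-Input, overlapped between the groups and differed by 0.06 ± 0.36 on the log2 scale (FDR = 0.888, 95% confidence interval −0.69 to 0.82), a sign that turned to −0.08 with the mouse as a block. Thus 1 of 3 metallothioneins was called higher, where 28.5% of all genes were. In the same contrast 13 of 16 astrocyte markers and 12 of 12 microglial markers were called higher, and 12 of 12 neuronal markers lower, where 17.5% of all genes were called lower. Their part in the metallothionein levels was not tested.

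Per kilobase of transcript, which allows levels to be set side by side between genes, Mt3 led in Tissue-Input with 555 ± 40.4 CPM per kb (SD, n = 4), before Mt1 with 294 ± 20.5 and Mt2 with 219.9 ± 23.2. In Cell-Input the means of Mt3 (541 ± 66.3 CPM per kb) and Mt1 (529.6 ± 69.7) differed by less than their spread, and Mt2 followed with 431 ± 69.0.

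**Figure D1:**
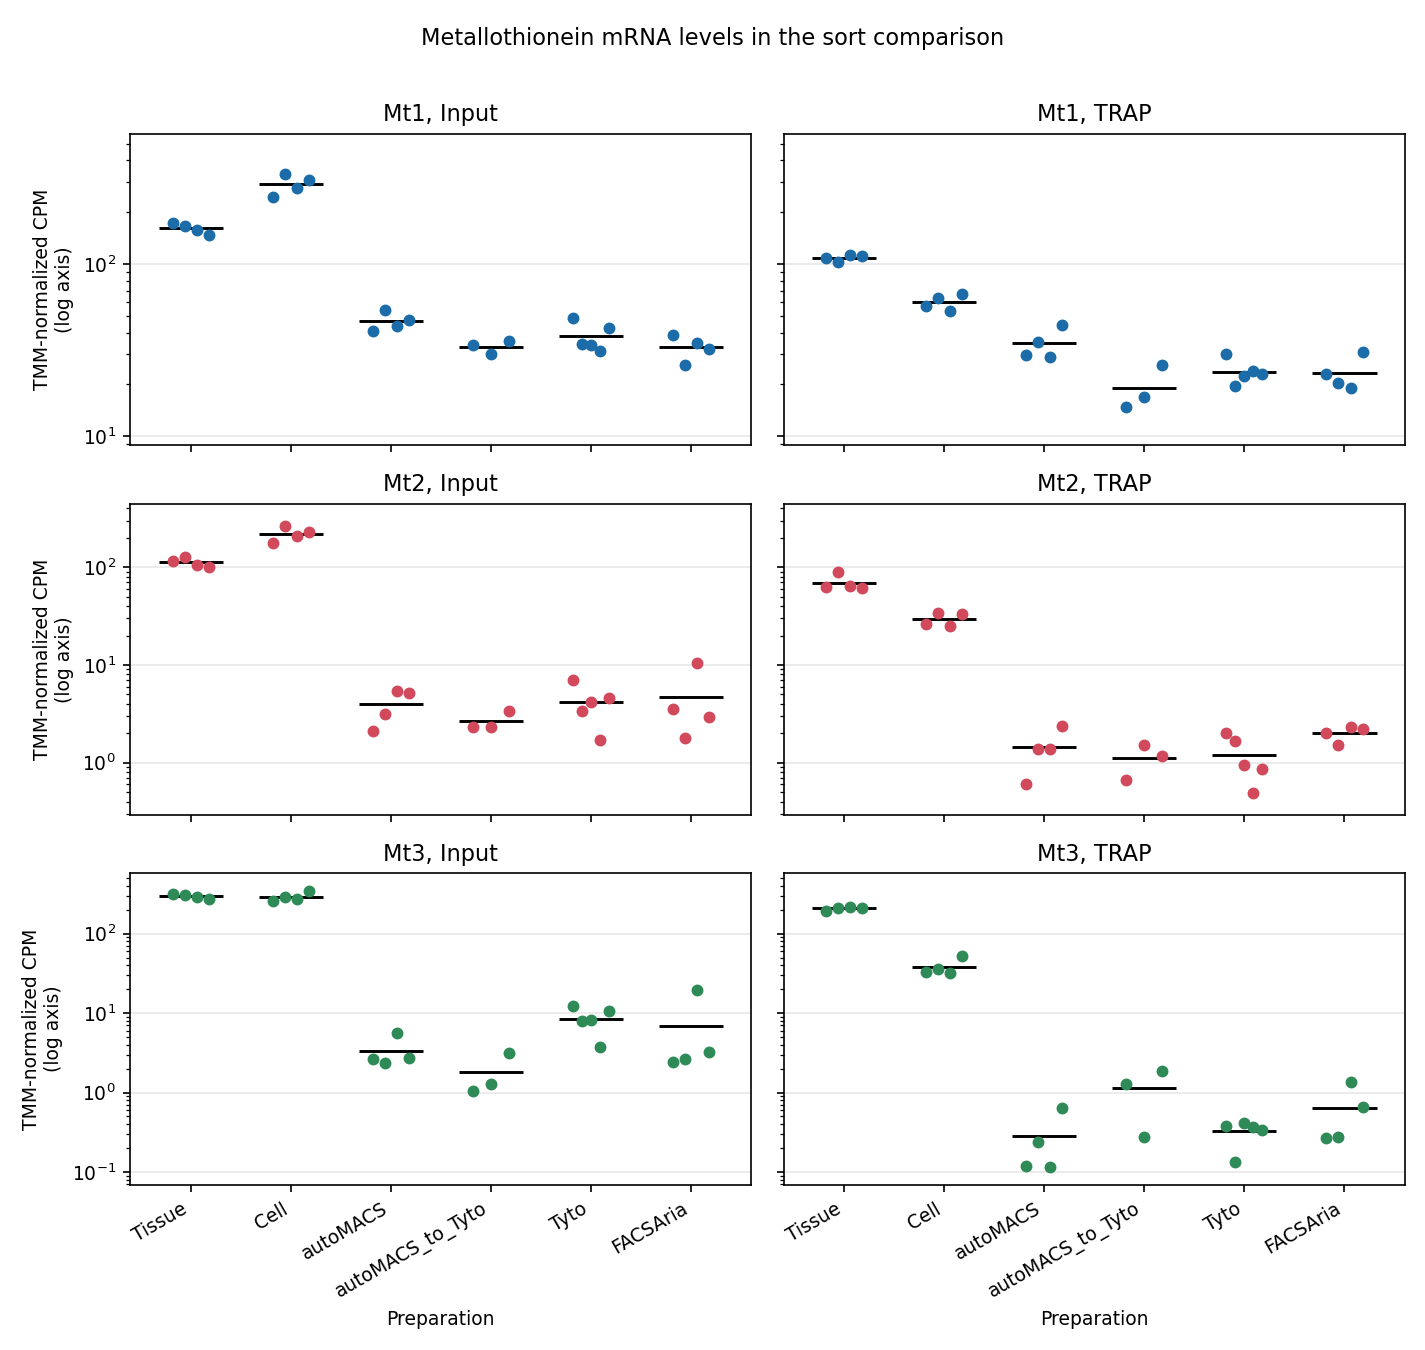
Level of Mt1, Mt2 and Mt3 in every library of the sort comparison, in CPM on a log axis, for Input and TRAP; each point is a mouse and each line the group mean. Mt1 is at 14.8 CPM or more in every sorted library, while Mt2 and Mt3 lie between 0.116 and 19.6 CPM there.

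In sorted cells, all 3 metallothioneins fell in Input, Mt1 least. Mt1 was at 40.8, 43.9, 47.5 and 54 CPM in autoMACS-Input and at 30.1, 33.8 and 35.7 CPM in autoMACS to Tyto-Input. It was at 31.1, 34.1, 34.6, 42.5 and 48.7 CPM in Tyto-Input and at 26.1, 32.1, 34.8 and 38.6 CPM in FACSAria-Input. No sorted library reached the lowest unsorted one, and the mean of the 4 sorts lay 9.15-fold below Cell-Input (log2 fold change −3.19 ± 0.09, FDR = 4.64e-19).

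Mt2, closer to Mt1 in sequence than Mt3 is, fell much further. It was at 2.12, 3.17, 5.14 and 5.37 CPM in autoMACS-Input and at 2.31, 2.33 and 3.39 CPM in autoMACS to Tyto-Input. It was at 1.7, 3.42, 4.16, 4.64 and 7.06 CPM in Tyto-Input and at 1.78, 2.90, 3.51 and 10.5 CPM in FACSAria-Input, where the highest value was that of mouse 991. The mean of the sorts was 69.4-fold below Cell-Input for Mt2 (−6.12 ± 0.22, FDR = 2.5e-17).

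Mt3, which led the family in tissue, was 80.3-fold lower (−6.33 ± 0.29, FDR = 1.35e-15), and its ratio to Mt2 differed by less than the spread. It was at 2.35, 2.65, 2.69 and 5.66 CPM in autoMACS-Input, with mouse 72 highest, and at 1.06, 1.28 and 3.13 CPM in autoMACS to Tyto-Input. It was at 3.70, 7.87, 8.19, 10.7 and 12.2 CPM in Tyto-Input and at 2.41, 2.63, 3.28 and 19.6 CPM in FACSAria-Input, with mouse 991 highest. The values of Mt3 thus spread over 1.06 to 19.6 CPM between sorted Input libraries, whereas those of Mt1 stayed within 26.1 to 54 CPM. All 3 of 3 members were called lower, against 34.7% of all genes, and DESeq2's size factors moved the median of all genes in this contrast by −0.21. Without FACSAria-Input of mouse 991 the log2 fold changes were −3.20 for Mt1, −6.31 for Mt2 and −6.66 for Mt3, and without autoMACS-Input of mouse 72 they were −3.18, −6.15 and −6.40.

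Each sort on its own gave the same picture in Input. Against Cell-Input, the log2 fold changes of Mt1, Mt2 and Mt3 were −2.90, −6.14 and −6.79 in autoMACS, −3.34, −6.59 and −7.58 in autoMACS to Tyto, −3.17, −5.97 and −5.34 in Tyto, and −3.37, −5.77 and −5.60 in FACSAria. All 12 of these were called lower, where 33.4%, 33.7%, 34.7% and 34% of all genes were called lower in the 4 sorts. Without mouse 991, FACSAria-Input lay at −6.55 for Mt2 and −6.93 for Mt3. Mt3 differed between the sorts, with FDR = 0.0327 in the F test across the 4 sorts. Its largest difference was 2.25 on the log2 scale, that of Tyto from autoMACS to Tyto, which had no mouse in common. Method and mice cannot be told apart there. In the same test, Mt1 (FDR = 0.0706, largest difference 0.47, under the fold threshold) and Mt2 (FDR = 0.577) were not called. Over all genes that F test called 7.42%. With each sorted library left out in turn, Mt3 was called in 16 of 16 fits (FDR from 0.00021 to 0.0787), and without FACSAria-Input of mouse 991 its FDR was 0.00021. Some marker sums of other cells were also highest in Tyto-Input. The astrocyte sum had a mean of 416 CPM there against 222 to 262 CPM in the other sorts. The oligodendrocyte sum was 527 against 216 to 284 CPM and the ependymal and choroid plexus sum 229 against 35.1 to 181 CPM. Others were not highest there. The endothelial sum was 135 CPM, against 201 in FACSAria-Input and 157 in autoMACS-Input. The neuronal sum was 42.2 CPM, against 46.2 in autoMACS-Input, and the mural sum, at 16.4 CPM, was the lowest of the sorts. The part of these cells in the Mt3 difference was not tested.

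Of the pairs of sorts, those of autoMACS to Tyto with autoMACS and of Tyto with FACSAria were tested singly, and no member was called in either in Input. From autoMACS to autoMACS to Tyto, the log2 change was −0.44 ± 0.15 for Mt1 (FDR = 0.116), −0.45 ± 0.49 for Mt2 and −0.80 ± 0.70 for Mt3, in a contrast that called 1.96% of genes. Tyto-Input differed from FACSAria-Input by 0.19 ± 0.13 for Mt1, −0.20 ± 0.37 for Mt2 and 0.26 ± 0.43 for Mt3, with FDR of at least 0.827 and 0.476% of genes called. The Mt3 value in that contrast rested on FACSAria-Input of mouse 991. Without it Mt3 was higher in Tyto by 1.59 on the log2 scale and was called (FDR = 0.0118), and the Mt2 difference turned to 0.58.

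In TRAP, all 3 metallothioneins were lower in the suspension than in tissue. Mt1 was at 103, 108, 112 and 113 CPM in Tissue-TRAP and at 53.4, 57.1, 63.9 and 67.0 CPM in Cell-TRAP. Mt2 was at 60.8, 62.9, 64.2 and 89.3 CPM in Tissue-TRAP, with mouse 947 highest, and at 25.1, 26, 33 and 34.1 CPM in Cell-TRAP. Mt3 was at 193, 209.6, 212 and 216 CPM in Tissue-TRAP and at 32.1, 33.1, 36.3 and 52.5 CPM in Cell-TRAP. The groups did not overlap for any member, and the direction was opposite to that of Mt1 and Mt2 in Input. The log2 fold change was −0.84 ± 0.15 for Mt1 (FDR = 2.6e-05, 1.79-fold and not called), −1.22 ± 0.21 for Mt2 (FDR = 1.26e-05) and −2.42 ± 0.20 for Mt3 (FDR = 3.38e-11). With DESeq2's size factors, which moved the median of all genes in this contrast by −0.33, Mt1 stood at −1.17 and was called. So 2 of 3 members were called lower, beside 29.3% of all genes. Astrocyte marker sums, which in Tissue-TRAP overlapped those of Tissue-Input, fell over the same step, from 4878 to 6880 CPM in Tissue-TRAP to 2627 to 3000 CPM in Cell-TRAP, and microglial sums rose from 6269 to 8037 CPM to 38227 to 41641 CPM, and their part was not tested.

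In sorted TRAP libraries all 3 metallothioneins were lower than in Cell-TRAP, and Mt2 and Mt3 by more than Mt1. Mt1 was at 29.0, 29.6, 35.3 and 44.4 CPM in autoMACS-TRAP and at 14.8, 17.0 and 25.8 CPM in autoMACS to Tyto-TRAP. It was at 19.6, 22.5, 23.0, 23.9 and 30 CPM in Tyto-TRAP and at 19.0, 20.4, 23.0 and 30.7 CPM in FACSAria-TRAP. All of these lay below Cell-TRAP, by 2.5-fold over the mean of the sorts (−1.32 ± 0.12, FDR = 5.18e-10).

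Mt2 fell to 0.601, 1.38, 1.39 and 2.38 CPM in autoMACS-TRAP and to 0.674, 1.18 and 1.54 CPM in autoMACS to Tyto-TRAP. It was at 0.486, 0.857, 0.956, 1.68 and 2.00 CPM in Tyto-TRAP and at 1.53, 2.02, 2.23 and 2.33 CPM in FACSAria-TRAP. These levels stand for 8 to 44 counts a library, and the mean of the sorts was 21.4-fold below Cell-TRAP (−4.42 ± 0.18, FDR = 1.13e-16).

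Mt3 came close to the limit of what the depth can show, with 2 to 20 counts a library. No sorted TRAP group had more than 5 counts of it in every library. Mt3 thus passed the count filter of this fit only through Tissue-TRAP and Cell-TRAP, where it was high. It was at 0.116, 0.120, 0.240 and 0.648 CPM in autoMACS-TRAP and at 0.279, 1.28 and 1.87 CPM in autoMACS to Tyto-TRAP. It was at 0.134, 0.343, 0.365, 0.385 and 0.410 CPM in Tyto-TRAP and at 0.269, 0.279, 0.661 and 1.37 CPM in FACSAria-TRAP. Mt3 was thus 76.1-fold below Cell-TRAP over the sorts (−6.25 ± 0.19, FDR = 6.74e-19), with all 3 members called lower against 23.6% of all genes. Against Tissue-TRAP the fall was 4.48-fold for Mt1, 49.7-fold for Mt2 and 406-fold for Mt3 (−2.16 ± 0.11, −5.64 ± 0.17 and −8.67 ± 0.18), all called, against 36.9% of genes, and the size factors moved the median of all genes by −0.35.

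Single sorts in TRAP gave log2 fold changes against Cell-TRAP of −0.82, −4.36 and −7.04 for Mt1, Mt2 and Mt3 in autoMACS, −1.70, −4.74 and −5.18 in autoMACS to Tyto, −1.37, −4.68 and −6.87 in Tyto, and −1.41, −3.89 and −5.91 in FACSAria. All were called lower but Mt1 in autoMACS, which was 1.76-fold lower (FDR = 0.00013), and the 4 sorts called 23%, 21.7%, 23.2% and 21.9% of all genes lower. Without mouse 73, Mt3 in autoMACS-TRAP lay at −7.88, and without mouse 991 in FACSAria-TRAP at −6.63. Across the sorts, Mt3 was called (FDR = 0.0664, largest difference 1.86) and Mt1 was not, since its largest difference was 0.88 (FDR = 0.00308), while Mt2 had FDR = 0.249. That F test called 4.17% of genes. The Mt3 call was lost in 5 of 16 fits that left out a library, those without autoMACS-TRAP of mouse 66, 67 or 72 and without autoMACS to Tyto-TRAP of mouse 66 or 73 (FDR from 0.108 to 0.245), and Mt1 was called without the last of these.

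Between the bead sort and beads followed by the cartridge, Mt1 was different in autoMACS to Tyto-TRAP by −0.88 ± 0.18 on the log2 scale (FDR = 0.00153, not called, but called at −1.14 without mouse 73), Mt2 differed by −0.38 ± 0.42, and Mt3 was higher by 1.86 ± 0.61 (FDR = 0.0363) and called, in a contrast that called 2.37% of genes. The Mt3 call rests on 4 to 19 counts in each autoMACS to Tyto-TRAP library and on mice 66 and 73 of autoMACS to Tyto-TRAP, since it stood at 1.69 without the first and 1.41 without the second and was called in neither case. Without autoMACS-TRAP of mouse 73 it stood at 2.70 and was called. Between Tyto-TRAP and FACSAria-TRAP no member was called (0.04 ± 0.16 for Mt1, −0.79 ± 0.34 for Mt2 and −0.96 ± 0.59 for Mt3, with 0.0936% of genes called), and without FACSAria-TRAP of mouse 991 the Mt3 value was −0.24.

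Setting TRAP against Input within a preparation compares the level of a transcript in the pulled-down RNA with its level in the RNA of all cells. It is a ratio of relative levels and not the share of a transcript on the tagged ribosomes. Mean neuronal marker sums were 8500 CPM in Tissue-Input, 8393 in Tissue-TRAP, 920 in Cell-Input and 256 in Cell-TRAP. Astrocyte sums were 5153, 6002, 13006 and 2762 CPM in the same order, and their part in the ratios was not tested. In Tissue, Mt1 was lower in TRAP by a log2 fold change of −0.57 ± 0.15 (FDR = 0.00229), Mt2 by −0.70 ± 0.26 (FDR = 0.0404) and Mt3 by −0.52 ± 0.30 (FDR = 0.22), all under the fold threshold, and 1.87% of genes were called lower. In Cell, the values were −2.27 ± 0.15 for Mt1, −2.90 ± 0.28 for Mt2 and −2.91 ± 0.32 for Mt3, and all 3 were called lower, where 30.9% of genes were. In the sorts, Mt1 was at −0.60 ± 0.08 (1.52-fold, not called), Mt2 at −1.40 ± 0.22 and Mt3 at −3.04 ± 0.35, and the last 2 were called lower, against 18.8% of genes.

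The difference between these effects was tested as an interaction. The TRAP-to-Input log2 ratio in Cell differed from that in Tissue by −1.70 ± 0.21 for Mt1 (FDR = 9.54e-09), −2.20 ± 0.37 for Mt2 (FDR = 4.56e-06) and −2.39 ± 0.43 for Mt3 (FDR = 1.16e-05), all called lower, beside 29.5% of genes. In the sorts it was higher than in Cell by 1.66 ± 0.17 for Mt1 (FDR = 2.54e-11) and 1.49 ± 0.35 for Mt2 (FDR = 0.000356), both called, beside 9.94% of genes. For Mt3 that difference was −0.13 ± 0.41 (FDR = 0.862), and its sign turned, to 0.33 with DESeq2's size factors and 0.16 with the mouse as a block. The size factors moved the median of all genes by −0.41 in the TRAP to Input ratio of Cell, by −0.32 in the first of these interactions and by 0.46 in the second, and turned no other sign of a member in the TRAP to Input ratios and interactions of the sort series.

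**Figure D2:**
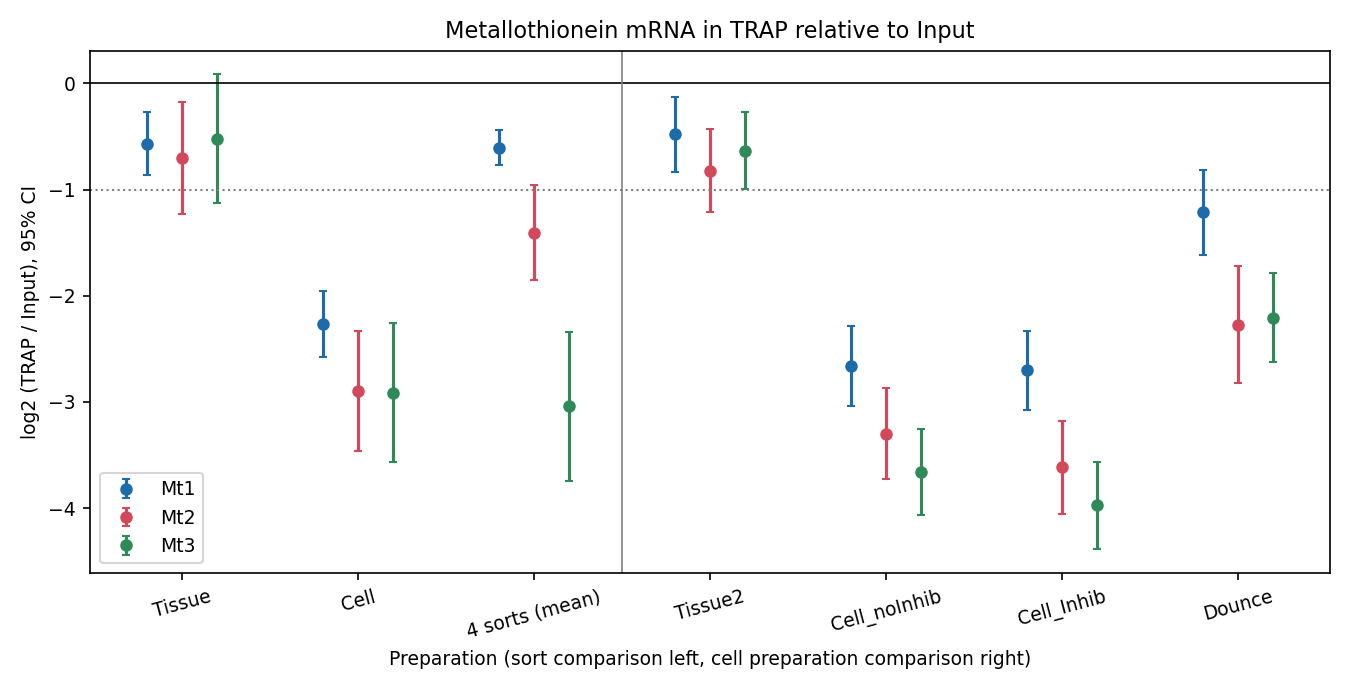
Log2 ratio of TRAP to Input for Mt1, Mt2 and Mt3 in each preparation of both comparisons, as fitted values with 95% confidence intervals. All lie below 0, and the unsorted suspensions made at 37 °C lie lowest for Mt1 and Mt2, between −2.27 and −3.62.

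Apart from the pseudocount, which matters where a member is low, the balance between the members within a library does not depend on how the library is scaled. The log2 ratio of Mt1 to Mt2, from CPM with a pseudocount of 0.5, was 0.52 ± 0.09 (SD, n = 4) in Tissue-Input and 0.41 ± 0.05 in Cell-Input, a difference within the spread (exact permutation test, two-sided, adjusted p = 0.171 over 72 such tests). In the 16 sorted Input libraries it was 3.22 ± 0.55, from 1.68 to 3.98, with no overlap with Cell-Input (difference 2.82, exact permutation p = 0.000413, adjusted p = 0.00495). In TRAP the same ratio was 0.67 ± 0.31 in Tissue, 1.02 ± 0.10 in Cell and 3.76 ± 0.55 in the sorts. The step from Tissue to Cell was 0.36 (adjusted p = 0.0457, exact permutation test, where the smallest raw p for 4 against 4 is 0.0286) and that from Cell to the sorts 2.73 (adjusted p = 0.00495, exact permutation test). In each fraction, all 16 sorted libraries had a higher Mt1 to Mt2 ratio than every Cell library. The permutation tests of ratios, here and below, treated every library as independent. Tissue and Cell shared their mice, as did Cell_noInhib and Cell_Inhib, and the 16 sorted libraries came from fewer mice. The p-values take no account of this, and no permutation within mice was run.

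The ratio of Mt1 to Mt3 changed at every step. Its log2 value rose from −0.88 ± 0.01 in Tissue-Input to 0.00 ± 0.16 in Cell-Input (adjusted p = 0.0457, exact permutation test) and to 3.01 ± 1.03 in the sorted Input libraries (adjusted p = 0.00495, exact permutation test). In TRAP it rose from −0.93 ± 0.08 in Tissue to 0.66 ± 0.21 in Cell and 4.71 ± 0.77 in the sorts (adjusted p = 0.0457 and 0.00495, exact permutation tests). The last of these depends on the pseudocount, since the counts of Mt3 are low, and the difference from Cell-TRAP was 4.04 with 0.5 and 5.31 with none. Mt2 to Mt3 rose by 1.00 from Tissue to Cell in Input and by 1.23 in TRAP (adjusted p = 0.0457 for both, exact permutation test). From Cell to the sorts it differed by 0.19 in Input (adjusted p = 0.673, exact permutation test) and by 1.31 in TRAP (adjusted p = 0.0457, exact permutation test).

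**Figure D3:**
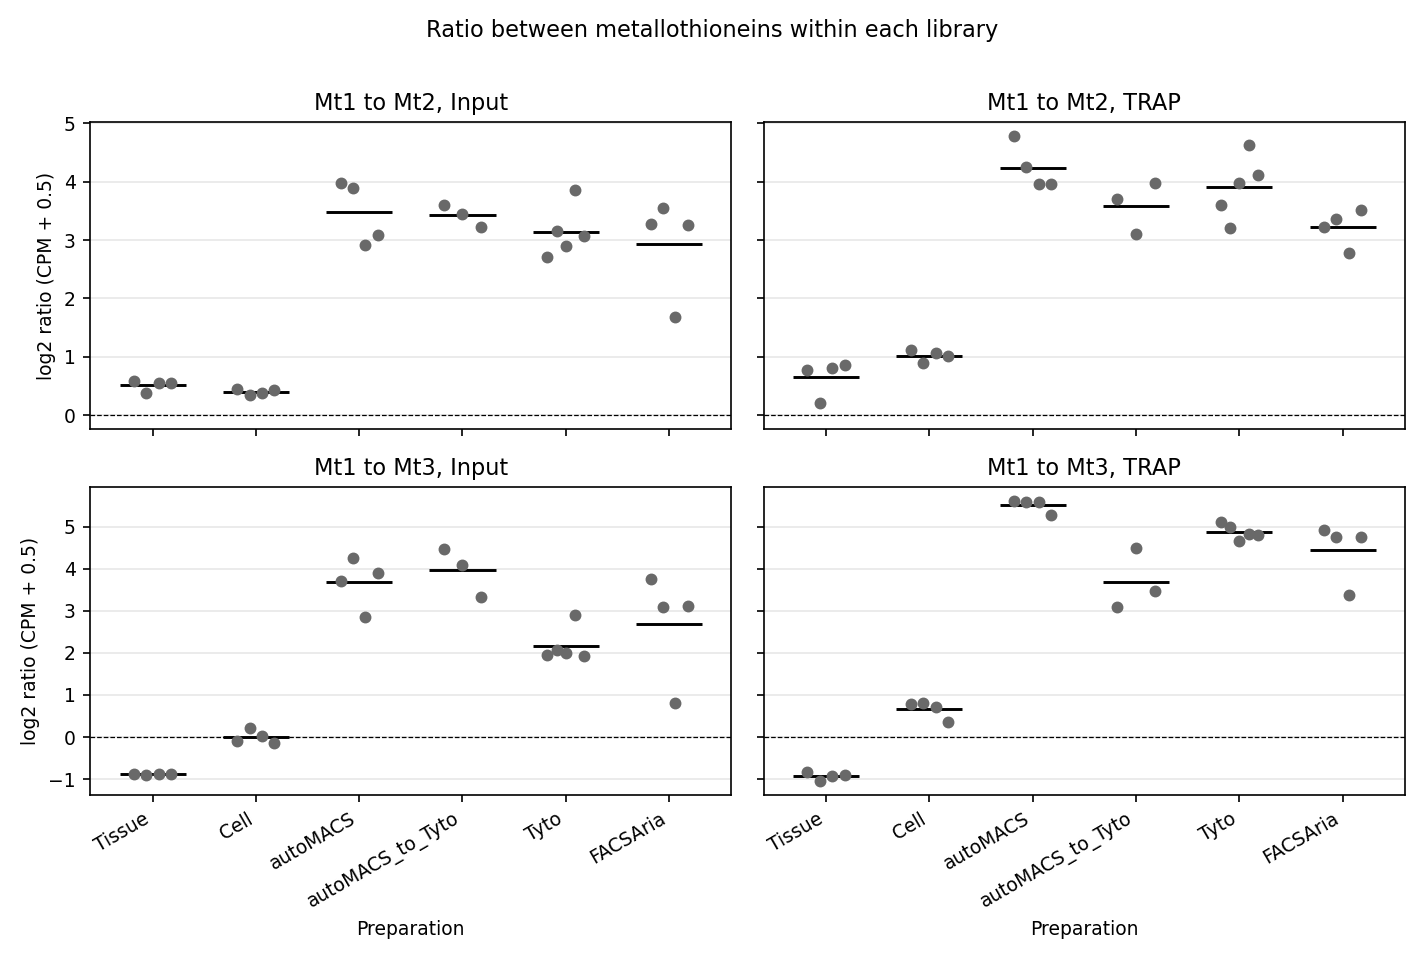
Log2 ratio between pairs of metallothioneins in each library, by preparation and fraction; each point is a mouse and the dashed line marks equal CPM. Mt1 to Mt2 lies near 0.5 in Tissue-Input and Cell-Input and between 1.68 and 3.98 in the sorted Input libraries.

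Since astrocytes are a main source of metallothioneins in brain, each member was also set against the summed CPM of the 16 astrocyte markers in the same library. From Cell to the sorts in Input, the log2 ratio of Mt1 to that sum rose by 2.57 (adjusted p = 0.00495, exact permutation test), and in TRAP by 2.72 (adjusted p = 0.00495, exact permutation test). For Mt2 and Mt3 the same differences were −0.25 and −0.44 in Input (adjusted p = 0.381 and 0.318, exact permutation tests) and −0.01 and −1.32 in TRAP (adjusted p = 0.982 and 0.0127, exact permutation tests), but their sign depended on how the markers were summarised. Without Slc1a3, a glutamate transporter that made up 13.8% of the sum in Cell-Input and 48.7 to 93.8% (group means) in the sorted libraries, the differences were 1.21 for Mt2 and 1.02 for Mt3 in Input and 3.10 and 1.79 in TRAP. From Tissue to Cell in Input, all 3 ratios were lower, with differences of −0.49 for Mt1, −0.37 for Mt2 and −1.37 for Mt3 (adjusted p = 0.0457 for each, exact permutation test). That of Mt2 came to −0.25, past no threshold, without Slc1a3. Of the differences from Cell to the sorts, that of Mt1 kept its sign under each of the 3 marker measures.

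In the cell preparation comparison, the question was whether inhibitors of transcription and translation, or a cold preparation without enzymes, change the RNA found. In Input, the suspensions made at 37 °C again held more Mt1 and Mt2 than tissue, but under the fold threshold. Mt1 was at 209, 212, 226 and 244 CPM in Tissue2-Input, at 344, 412, 438 and 468 CPM in Cell_noInhib-Input and at 349.7, 361, 366 and 405 CPM in Cell_Inhib-Input. Mt2 was at 140.0, 155, 155 and 167 CPM in Tissue2-Input, at 208, 265, 282 and 308 CPM in Cell_noInhib-Input and at 226, 239.6, 253 and 271 CPM in Cell_Inhib-Input. Mt3 was at 429.8, 442, 446 and 477 CPM in Tissue2-Input, at 453, 544, 577 and 578 CPM in Cell_noInhib-Input and at 457, 514, 537 and 541 CPM in Cell_Inhib-Input. For Mt1 and Mt2 both suspensions lay above tissue without overlap, and for Mt3 they overlapped with it. Cell_noInhib differed from Tissue2 by log2 fold changes of 0.76 ± 0.17 for Mt1 (FDR = 0.000555), 0.64 ± 0.16 for Mt2 (FDR = 0.00179) and 0.12 ± 0.14 for Mt3 (FDR = 0.44), and none was called, where 25.6% of genes were called higher. Cell_Inhib differed from Tissue2 by 0.59 ± 0.17 (FDR = 0.00439), 0.53 ± 0.16 (FDR = 0.00695) and 0.04 ± 0.14 (FDR = 0.783), and none was called, beside 25.5% of genes.

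With and without inhibitors, the metallothioneins overlapped in Input. Cell_noInhib and Cell_Inhib came from the same 4 mice, and the fit did not pair them. The difference of Cell_Inhib from Cell_noInhib was −0.17 for Mt1 (95% confidence interval −0.52 to 0.18), −0.11 for Mt2 (−0.45 to 0.23) and −0.08 for Mt3 (−0.36 to 0.21) on the log2 scale, with FDR = 1 for each. These intervals leave room for a small change in either direction but none past a fold change of 2. Over all genes the contrast called 0.311%.

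In the Dounce preparation, all 3 metallothioneins were lower than in tissue in Input, opposite to Mt1 and Mt2 in the suspensions made at 37 °C. In Dounce-Input, Mt1 was at 38.3, 49.1, 62.7 and 86.1 CPM, with mouse 179 highest. Mt2 was at 15.9, 26.9, 28.1 and 36.8 CPM, and Mt3 at 77.5, 110.2, 112 and 139 CPM. All of these lay below every tissue library. The log2 fold change against Tissue2 was −1.69 ± 0.18 for Mt1 (3.24-fold, FDR = 5.04e-08), −2.29 ± 0.18 for Mt2 (4.89-fold, FDR = 7.07e-10) and −1.82 ± 0.14 for Mt3 (3.53-fold, FDR = 7.76e-10), so all 3 were called lower, where 21.4% of genes were. Against Cell_noInhib they were −2.45, −2.93 and −1.94, also all called lower, beside 28.1% of genes. The astrocyte marker sum was 2322 to 4772 CPM in Dounce-Input and 6328 to 6776 CPM in Tissue2-Input, and relative to it the members were still lower in Dounce, with differences of −1.08 for Mt1, −1.67 for Mt2 and −1.17 for Mt3 on the log2 scale (adjusted p = 0.0457 for each, exact permutation test). The Dounce preparation differed from the others in temperature, enzymes, a Percoll gradient and its mice, and RNA integrity was lowest in Dounce-Input by the study's account, and these cannot be told apart here. Tissue2, the suspensions made at 37 °C and Dounce had no mouse in common.

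**Figure D4:**
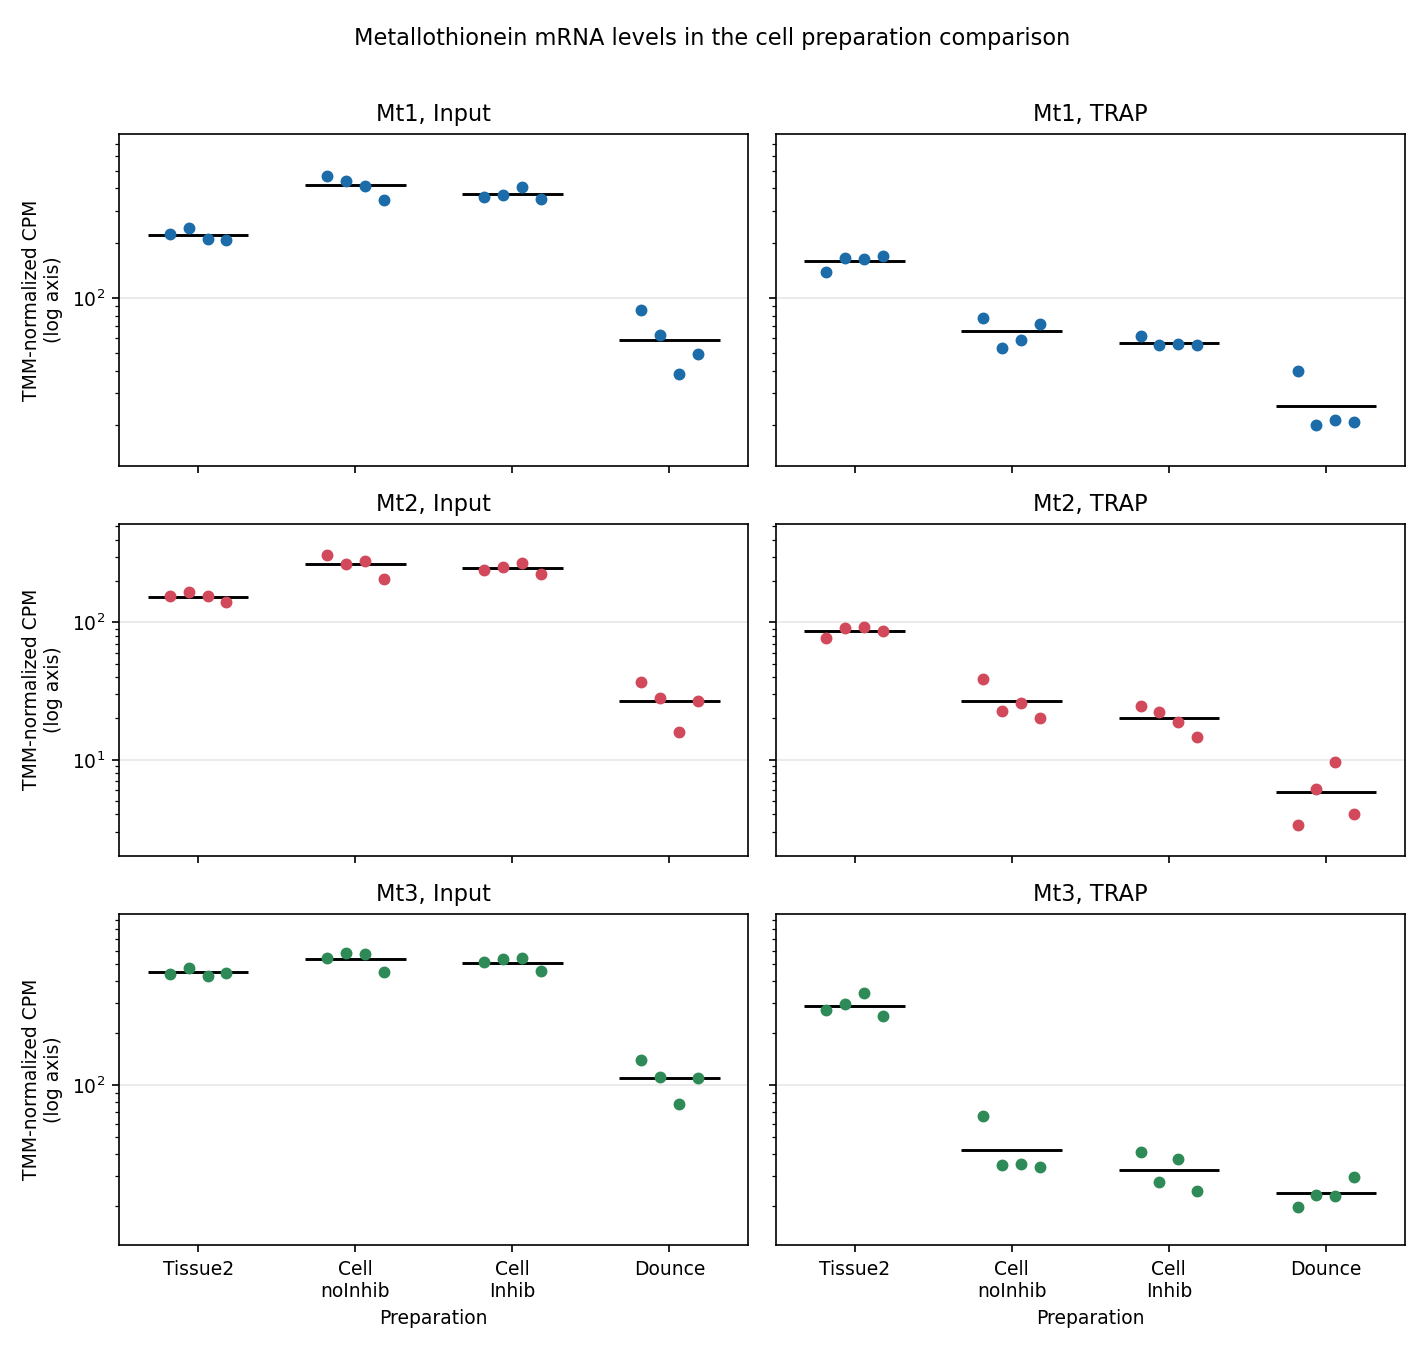
Level of Mt1, Mt2 and Mt3 in every library of the cell preparation comparison, in CPM on a log axis, for Input and TRAP; each point is a mouse and each line the group mean. Dounce-Input lies below Tissue2-Input for all 3 genes, and libraries with and without inhibitors overlap.

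In TRAP of the same preparations, all 3 metallothioneins were lower than in tissue in each suspension. Mt1 was at 139, 165, 165 and 170.4 CPM in Tissue2-TRAP, at 53.4, 58.7, 72.1 and 78.1 CPM in Cell_noInhib-TRAP, at 54.9, 54.9, 55.7 and 61.8 CPM in Cell_Inhib-TRAP and at 20, 21, 21.4 and 39.9 CPM in Dounce-TRAP. Mt2 was at 77.7, 86.5, 91.1 and 93.2 CPM in Tissue2-TRAP, at 20.1, 22.8, 25.9 and 38.8 CPM in Cell_noInhib-TRAP, at 14.7, 18.8, 22.2 and 24.8 CPM in Cell_Inhib-TRAP and at 3.34, 4.01, 6.10 and 9.71 CPM in Dounce-TRAP. Mt3 was at 251, 271, 294 and 339 CPM in Tissue2-TRAP, at 33.6, 34.5, 35 and 66.6 CPM in Cell_noInhib-TRAP, at 24.3, 27.5, 37.3 and 41.1 CPM in Cell_Inhib-TRAP and at 19.8, 22.9, 23.2 and 29.6 CPM in Dounce-TRAP. Tissue2-TRAP was highest and did not overlap with any suspension, and mouse 156 gave the highest value in Cell_noInhib-TRAP for each gene.

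Against Tissue2-TRAP, Cell_noInhib-TRAP lay at −1.24 ± 0.17 for Mt1 (FDR = 2.76e-06), −1.64 ± 0.23 for Mt2 (FDR = 2.72e-06) and −2.72 ± 0.22 for Mt3 (FDR = 1.85e-09), all called lower against 30.8% of genes. Cell_Inhib-TRAP lay at −1.43 ± 0.17, −2.06 ± 0.23 and −3.09 ± 0.22, all called lower against 31.2% of genes. Dounce-TRAP lay at −2.58 ± 0.19 for Mt1 (6-fold), −3.89 ± 0.28 for Mt2 (14.8-fold) and −3.54 ± 0.24 for Mt3 (11.6-fold), all called lower against 27.1% of genes, with only 12 to 29 counts of Mt2 in a library. Between Dounce-TRAP and Cell_noInhib-TRAP, Mt1 (−1.35 ± 0.19) and Mt2 (−2.25 ± 0.28) were called lower and Mt3 (−0.83 ± 0.23, FDR = 0.00577) was not, beside 8.02% of genes. Inhibitors again made no call, with differences of −0.20 for Mt1 (−0.55 to 0.16), −0.41 for Mt2 (−0.89 to 0.06) and −0.38 for Mt3 (−0.82 to 0.07) and FDR of 0.891, 0.672 and 0.689, in a contrast that called 0.638% of genes and 150 in place of 94 genes with the mouse as a block. These intervals and FDR come from the unpaired fit. Within mice, Mt2 in TRAP was lower with inhibitors in each mouse, and Mt1 in all but mouse 157. With the mouse as a block, still no member was called.

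**Figure D5:**
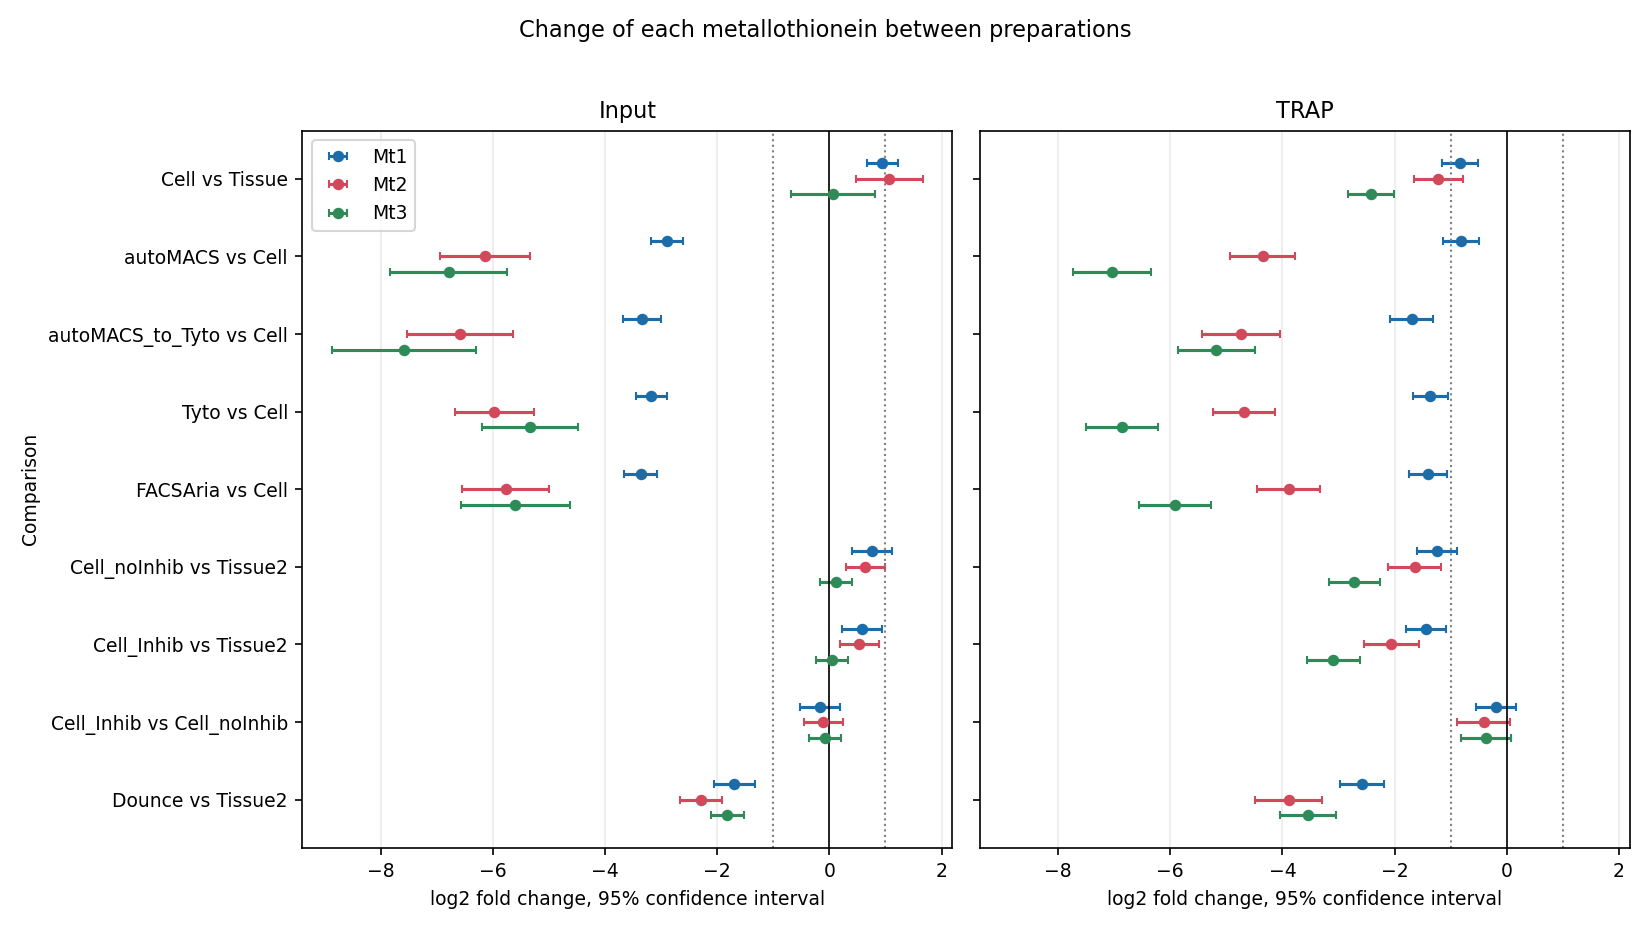
Log2 fold change of Mt1, Mt2 and Mt3 for each unsorted suspension against tissue, each sort against Cell and inhibitors against none, in Input and TRAP. Bars are 95% confidence intervals and dotted lines mark a fold change of 2. Intervals for the contrast of inhibitors against none include 0 for all 3 genes. Single sorts against Cell lie between −5.77 and −6.59 for Mt2 and between −5.34 and −7.58 for Mt3 in Input. In TRAP they lie between −3.89 and −4.74 for Mt2 and between −5.18 and −7.04 for Mt3.

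TRAP was also set against Input in each preparation. DESeq2's size factors moved the median of all genes by −0.23 in the ratio of Dounce and by 0.12 and 0.13 in those of Cell_Inhib and Cell_noInhib, and turned no sign of a member. The log2 ratio was −0.48, −0.82 and −0.64 for Mt1, Mt2 and Mt3 in Tissue2 (none called, 2.31% of genes called lower), −2.66, −3.30 and −3.66 in Cell_noInhib (all called lower, against 36.7%) and −2.70, −3.62 and −3.97 in Cell_Inhib (all called lower, against 35.8%). In Dounce it was −1.21 ± 0.20, −2.27 ± 0.27 and −2.21 ± 0.20 (all called lower, against 26.7%). The call of Mt1 in Dounce rests on Dounce-Input of mouse 179, without which it was −0.97 and not called, and it was −1.52 without the TRAP library of that mouse. Mt2 in Dounce was −2.87 without Dounce-TRAP of mouse 181. The interaction between Cell_noInhib and Tissue2 was −2.18 ± 0.25 for Mt1, −2.47 ± 0.28 for Mt2 and −3.03 ± 0.26 for Mt3, all called lower beside 35.7% of genes. Between Dounce and Tissue2 it was −0.74 ± 0.26 for Mt1 (FDR = 0.0216, not called, and called at −1.04 without Dounce-TRAP of mouse 179), −1.45 ± 0.34 for Mt2 and −1.57 ± 0.27 for Mt3 (both called lower, beside 18.3% of genes). Between Cell_Inhib and Cell_noInhib it was −0.04, −0.32 and −0.31, with none called and 0.145% of genes called, 53 in place of 23 genes with the mouse as a block.

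The ratios between members in this comparison also differed between tissue and suspension. Mt1 to Mt3 was higher in Cell_noInhib than in Tissue2 by 0.64 in Input and 1.52 in TRAP, and Mt2 to Mt3 by 0.51 and 1.09 on the log2 scale (adjusted p = 0.0457 for each, exact permutation test). In Dounce-Input, Mt1 to Mt2 was higher by 0.59 and Mt2 to Mt3 lower, with a difference of −0.50 (adjusted p = 0.0457 for both, exact permutation test). No ratio differed between Cell_Inhib and Cell_noInhib past the threshold, with adjusted p from 0.277 to 0.956 (exact permutation tests).

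Other genes of metal handling were followed as lists, whose counts stand beside the shares of all genes called. In Cell-Input against Tissue-Input these shares were 28.5% higher and 17.5% lower. From Cell to the sorts they were 17.1% higher and 34.7% lower in Input and 0.836% higher and 23.6% lower in TRAP. Of 7 transcription factors that act on metallothionein promoters, 4 were called higher and none lower in Cell-Input against Tissue-Input, with a median log2 fold change of 1.18 against 0.17 for all genes tested. These were Nfe2l2 (3.34), a factor of the oxidative stress response, Sp1 (2.13), Stat3 (1.23), which carries cytokine signals, and Nr3c1 (1.18), the glucocorticoid receptor, while Mtf1 itself, the zinc-sensing factor, stood at 0.52 and was not called. From Cell to the sorts in Input, where all 3 metallothioneins fell, 4 of these 7 factors were called higher, beside 17.1% of genes, and none lower, and in TRAP none was called in either direction.

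Among zinc transporters that move the metal out of the cytosol (Slc30a family), 4 of 9 tested were called higher and 2 lower in Cell-Input against Tissue-Input, beside 28.5% and 17.5% of all genes. Slc30a1, the zinc exporter of the plasma membrane and itself a target of Mtf1, was higher by a log2 fold change of 2.32, and Slc30a3, which loads zinc into synaptic vesicles, stood at −4.60. From Cell to the sorts, none of 9 was called higher and 4 lower in each fraction, beside 34.7% of genes lower in Input and 23.6% in TRAP, with Slc30a1 at −1.83 in Input and −1.05 in TRAP. Among importers (Slc39a family), 4 of 14 were called higher and 2 lower in Cell-Input, shares near those of all genes, with Slc39a8 at 3.47. In the sorts against Cell, 2 of 14 were lower in Input, beside 34.7% of genes, Slc39a12 (−3.66), an astrocyte zinc importer, and Slc39a10 (−1.06). Of 12 genes of copper handling, 5 were called higher in Cell-Input and none lower, and from Cell to the sorts in Input 3 were called higher and 3 lower, beside 17.1% and 34.7% of genes. Of 10 genes of iron handling, 7 were called higher in Cell-Input, beside 28.5% of genes, and none lower, with Slc40a1, the iron exporter, at 4.30 and Hmox1, which releases iron from heme, at 1.87. In the sorts against Cell in Input, 3 of 10 were called higher, Slc40a1 (1.81), Hmox1 (1.52) and Ftl1 (1.35), the ferritin light chain, and 1 lower, Tfrc (−1.90), the transferrin receptor, and in TRAP none was called. No gene of these lists was called with inhibitors against without, in Input or TRAP.

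The genes with the most similar pattern were found by Pearson correlation of the mean log2(CPM + 1) over the 12 groups of the sort comparison, among 11736 genes with a mean of at least 10 CPM in 1 group. The points share mice and depth, and a high correlation is common when sorted and unsorted groups differ so widely, so the values are a description. For Mt1 they were Dbi (0.995), Tprkb (0.990), Metrn (0.988), Ramp1 (0.986) and Tppp3 (0.986). For Mt2 they were Gnb4 (0.997), Slc25a18 (0.996), Npas3 (0.996), Ndrg2 (0.996) and Boc (0.995). For Mt3 they were S100b (0.996), Gpm6a (0.996), Kif5a (0.995), Mtss1l (0.994) and Gfap (0.994). Over the 8 groups of the cell preparation comparison the same pairs ranged from 0.324 (Mt2 with Boc) to 0.990 (Mt2 with Slc25a18), with Dbi at 0.983 for Mt1 and Gfap, an astrocyte filament protein, at 0.982 for Mt3. Among themselves, the members correlated at 0.967 for Mt1 with Mt2, 0.937 for Mt1 with Mt3 and 0.983 for Mt2 with Mt3 in the sort comparison.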

How the data were processed

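Stranded poly(A) RNA-Seq libraries of Input and TRAP fractions from mouse brain preparations were analysed. The authors trimmed the reads, aligned them to mm10 in Strand NGS with regard to strand, removed duplicates and quantified genes, and deposited expected counts, of which 33.2% were whole in the sort table and 20.8% in the cell preparation table. The deposited log2 values were made by the authors from DESeq2 size factors and baselined per gene, and served only in an alternative fit with limma. In both tables, 23 symbols that a spreadsheet had turned into dates were restored from identifiers, and no column was left without a sample.

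Expected counts were rounded. Genes with more than 5 counts in every library of at least 1 group were kept, and TMM factors and the quasi-likelihood F test came from edgeR 4.0.16 (R 4.3.3), with all groups of a fraction in 1 fit and group as the only factor. TRAP and Input were fitted together for their ratio. Single log2 ratios within libraries (pseudocount 0.5 CPM) were compared with exact two-sided permutation tests, adjusted over 72 tests. Libraries of the same mouse were not paired in them. The quasi-likelihood test was checked on simulated counts in a single contrast of each fit within a fraction, and the permutation test on simulated ratios. The fits of TRAP with Input, their interactions and the F test across the sorts were not checked in this way. Depth limits low values, and counting error is their floor. The metallothioneins and the gene lists were chosen with earlier results of these data known. Named genes were the members, from each list up to 4 called genes of largest fold change with a mean of at least 10 CPM, and for each member the 5 most correlated genes. Mtf1 was named besides, after its values were seen.

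The same mouse numbers mark the same mouse in the study's supplement, so libraries could be paired. Over the genes above a minimum mean level, deviations from group means correlated at −0.009 to 0.087 for the mice shared by Tissue-Input and Cell-Input. In TRAP they correlated at 0.147 to 0.243. Fits with the mouse as a block, DESeq2 1.42.0, its size factors, limma 3.58.1 on the authors' log2 values, other count filters, only the groups of a contrast, other pseudocounts (0.05 and none), other marker summaries and each library left out in turn were tried. Columns of the authors' own comparisons and the earlier table of the cell preparation comparison were not used here.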

Additional observations from a re-analysis of the deposited data

Results flagged for a closer look

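Dixon's criterion for a value that stands apart was applied to the highest and lowest value of each member within a group. Of 54 such sets of 4 or 5 libraries, 7 met it, where chance alone gives about 1 in 20. The members were measured in the same libraries, so these sets were not independent. Mt1 was high in Cell_Inhib-TRAP of mouse 156 (61.8 CPM) and in Dounce-TRAP of mouse 179 (39.9 CPM). Mt2 was high in Tissue-TRAP of mouse 947 (89.3 CPM). Mt3 was high in Cell_noInhib-TRAP of mouse 156 (66.6 CPM), in FACSAria-Input of mouse 991 (19.6 CPM) and in autoMACS-Input of mouse 72 (5.66 CPM), and low in Tyto-TRAP of mouse 822 (0.134 CPM). Mt3 had only 2 to 6 counts a library in Tyto-TRAP, so this last flag rests on few reads and lies within reach of counting error. The FACSAria-Input and autoMACS-Input libraries named here are those whose markers also stood apart.

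The ratio of TRAP to Input differed between preparations by the test of that difference. From Tissue to Cell it changed by −1.70 for Mt1, −2.20 for Mt2 and −2.39 for Mt3 on the log2 scale, and from Cell to the sorts by 1.66 for Mt1 and 1.49 for Mt2. From Tissue2 to Cell_noInhib it changed by −2.18, −2.47 and −3.03 for Mt1, Mt2 and Mt3, and from Tissue2 to Dounce by −1.45 for Mt2 and −1.57 for Mt3.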

How the results depend on the processing

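For 195 results, 2338 values were recomputed under alternatives. Of these, 2264 kept their direction and their side of the threshold, 48 changed sign, 13 passed the threshold newly and 13 no longer passed it. The falls of all 3 members from Cell to the mean of the sorts, in Input and in TRAP, were called under each alternative that tested them. The filter of at least 10 counts in every sample left out Mt2 and Mt3 in the TRAP fit and the TRAP to Input fit of the sort comparison, so it gave no value there. Where the text gives no cause, the cause was not tested.

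The call of Mt2 in Cell-Input against Tissue-Input lay at the fold threshold. It fell below it at 0.97 with the DESeq2 Wald test, 0.97 with DESeq2's size factors, 0.96 with at least 10 counts in every sample, 0.92 with limma and 0.93 with only the 2 groups. With 1 library left out it ranged from 0.97 to 1.16, and it lost the call only without Cell-Input of mouse 947. The matching Mt1 value was 0.87 to 1.02 with 1 library left out. In TRAP, Mt1 in Cell against Tissue was called at −1.17 with either use of DESeq2, −1.20 with at least 10 counts in every sample and −1.28 with limma.

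Values near 0 changed sign. Mt3 in Cell-Input against Tissue-Input was −0.029 with both DESeq2 settings, −0.041 with at least 10 counts in every sample, −0.087 with limma, −0.072 with only the 2 groups and −0.026 to 0.112 with 1 library left out. For Mt3 in TRAP against Input, sorts less Cell, the values were 0.28 with the Wald test, 0.33 with size factors, 0.31 with limma, 0.14 with only these groups and −0.34 to 0.28 with 1 library left out. Mt3 in Cell_Inhib-Input against Tissue2-Input was −0.008 with both DESeq2 settings. Tyto-Input against FACSAria-Input was 0.008 with limma and −0.48 to 0.58 with 1 library left out for Mt2, and −0.022 to 1.59 for Mt3. In TRAP it was −0.055 to 0.196 for Mt1. Mt1 in TRAP against Input, Cell_Inhib less Cell_noInhib, was −0.127 to 0.055 with 1 library left out.

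With the mean log2 level of the astrocyte markers in place of their sum, the ratio to them was −0.18 for Mt1 in Cell-TRAP against Tissue-TRAP, −0.34 and −0.29 for Mt1 in Cell_noInhib-TRAP and Cell_Inhib-TRAP against Tissue2-TRAP and 0.052 between these suspensions. In sorted libraries against Cell it was 0.72 for Mt2 and 0.52 for Mt3 in Input and 1.60 and 0.29 in TRAP. Without Slc1a3, an alternative chosen after seeing the data, it was 1.21 and 1.02 for Mt2 and Mt3 in Input and 3.10 and 1.79 in TRAP, 0.085 for Mt2 in Cell-TRAP against Tissue-TRAP, 0.008 for Mt2 in Cell_noInhib-TRAP against Tissue2-TRAP and 0.013 for Mt1 in Cell_Inhib-TRAP against Cell_noInhib-TRAP.

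With the mouse as a replicate block, Mt2 in Cell-Input against Tissue-Input was 0.93 and no longer called, Mt3 there was −0.077, and Mt3 in TRAP against Input, sorts less Cell, was 0.16. The pairing changed no other call of a member. In Input it moved the number of genes called from 309 to 142 between autoMACS to Tyto and autoMACS and from 75 to 0 between Tyto and FACSAria. Depth limits Mt3 in sorted TRAP libraries, where 1 read is a large part of the value.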

Other observations

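In the bead sort, Input and TRAP libraries of 1 mouse did not always resemble each other most. Over the genes above a minimum mean level, the deviations of autoMACS-Input of mouse 72 from its group mean correlated at 0.54 with those of autoMACS-TRAP of mouse 73. They correlated at −0.15 with those of its own TRAP library, and autoMACS-Input and autoMACS-TRAP of mouse 73 correlated at −0.20. For mice 66 and 67 the correlations with their own TRAP libraries were 0.49 and 0.39. Mt3 was highest in autoMACS-Input in mouse 72 (5.66 CPM) and highest in autoMACS-TRAP in mouse 73 (0.648 CPM).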
